A study of Arabidopsis thaliana with 6 samples.

Results

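Transcript levels of 10 genes of flavonoid and anthocyanin synthesis were followed in Arabidopsis thaliana seedlings given auxin or melatonin. The genes were chosen by locus code. They are 5 early pathway genes, CHS (AT5G13930), CHI (AT3G55120), F3H (AT3G51240), F3'H (AT5G07990) and FLS1 (AT5G08640), 2 late genes, DFR (AT5G42800) and LDOX (AT4G22880), and 3 regulators, PAP1 (AT1G56650), MYBL2 (AT1G71030) and MYB111 (AT5G49330). All 10 were among the 27978 rows of the count table and among the 21267 genes kept by a filter on low counts.

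The 6 RNA-seq libraries came from wild-type plants, called Col in the labels, in 3 groups of 2. Seedlings were raised for 4 days on Murashige and Skoog medium with 3% sucrose under 16 hours of light, then moved to plates with 1 nM of the auxin indole-3-acetic acid (IAA) or 10 nM of melatonin (MT), an indole derivative. Controls received 0.1% ethanol, the solvent of both compounds, and the sample titles place all 3 groups at 7 days. The doses of the compounds differ, so MT and IAA were not compared at matched dose. The control columns of the count table carry 72 h in their names, which leaves their age uncertain in each comparison against control. The labels give whole seedlings as the tissue and the series' design text gives rosette leaves. Neither the number of seedlings per library nor a separate culture for each replicate is stated, so p-values measure the spread between these libraries, which may be technical.

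Flavonoids are made from phenylalanine through the general phenylpropanoid pathway. Chalcone synthase starts the pathway proper, and the early enzymes lead to dihydroflavonols, which FLS1 turns into flavonols and DFR and LDOX turn into anthocyanidins, the cores of the red and purple anthocyanins. In Arabidopsis the early genes are driven by a group of R2R3-MYB factors that includes MYB111, and the late genes by complexes of a MYB such as PAP1 with a bHLH and a WD40 protein. MYBL2 is a small MYB protein that represses the late genes. Sucrose and light are known to raise anthocyanin synthesis in seedlings.

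Total counts ran from 40087221 to 65558371 per library. Root markers were read in every library: the summed level of 12 genes of endodermis and root hairs was 15.4 and 24.1 CPM (counts per 1000000 of the library total scaled by its TMM factor) in control, 30.0 and 33.4 CPM with IAA, and 62.4 and 33.2 CPM with MT. The summed level of 10 genes of green tissue was 61570 and 64140 CPM in control, 65700 and 66490 CPM with IAA, and 61320 and 63360 CPM with MT. The libraries thus held reads of root and of green organs. Of the 12 root markers, all detected in every library, 12 had positive fold changes with MT and 2 rose, where 1.67% of all genes were called higher (8 had an unadjusted p under 0.05, and DESeq2 called 5), while with IAA 11 were positive and 0 passed edgeR's test (2 had an unadjusted p under 0.05, and DESeq2 called 2). None of the 10 green tissue markers passed in any comparison of edgeR's or DESeq2's test. The part of root content in the comparisons against control was not tested. Of 4 seed coat markers, TT2 had a count of 0 in all 6 libraries and BAN in 5. The others were read in every library, TT12 with counts of 4 to 13 and AHA10 with counts of 120 to 272. MT replicate 1 also stood apart in plastid genes, which took 0.285% of its counts against 0.0196% to 0.0244% in the others. In such bulk samples fewer cells of a type and less RNA per cell cannot be told apart.

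MYBL2 was the single member that changed past the threshold, and it was lower with both compounds, at 0.75 times its control level. With MT, the early genes CHS, CHI and FLS1 and the flavonol regulator MYB111 were at higher levels in both libraries than in either control. The late genes DFR and LDOX, the early gene F3'H and the regulator PAP1 were at lower levels in both, and the early gene F3H overlapped. Of all genes, 22.5% were higher and 22.2% lower in this way. These differences of the members did not pass the threshold of edgeR's test over all genes. DESeq2, run as an alternative, called CHS, DFR and LDOX with MT as well (adjusted p = 0.00265, 0.00793 and 0.0491). With IAA the 7 enzyme genes had log2 fold changes from -0.21 to 0.18, and none passed. For F3'H and LDOX both IAA libraries were below both controls, as for 20.2% of all genes. No member differed between MT and IAA past the threshold.

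**Figure D1:**
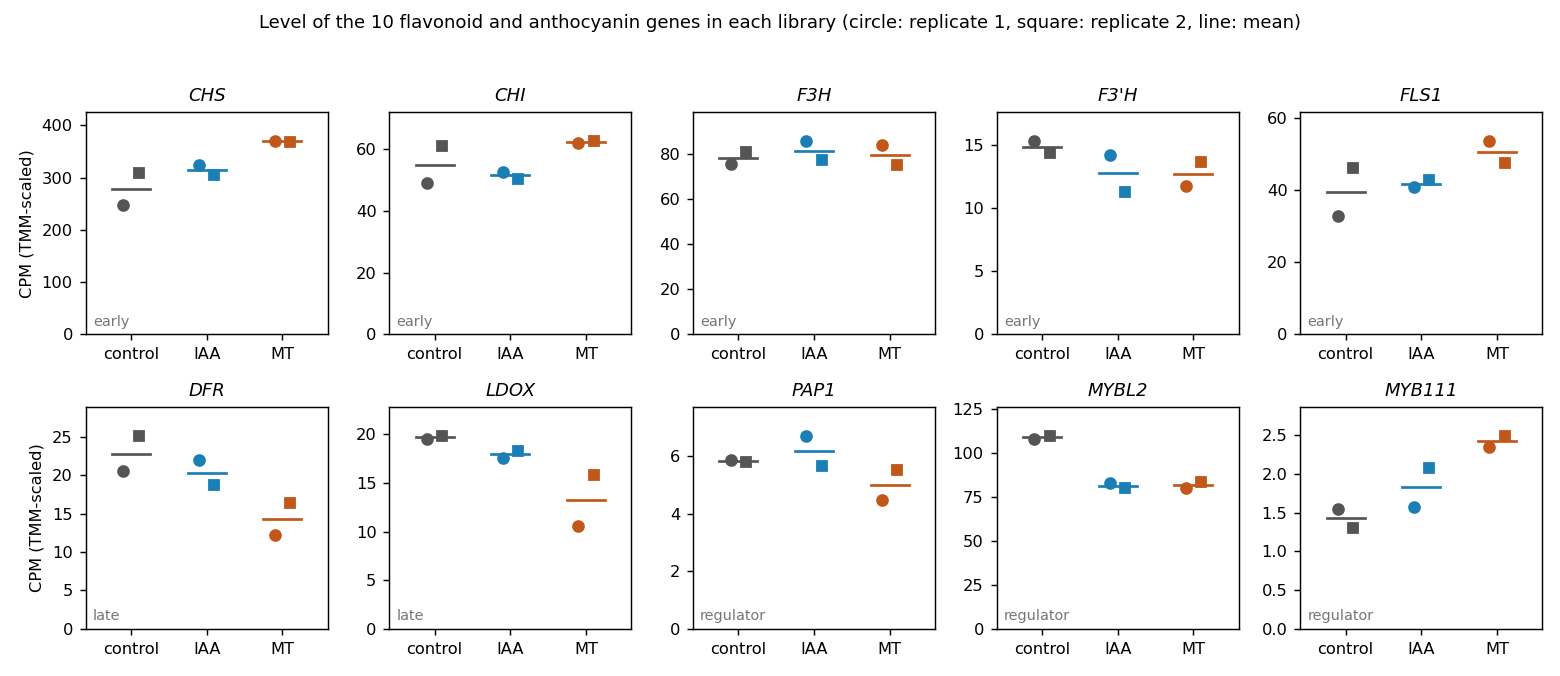
Level of each member in CPM (TMM-scaled, linear axis from 0) in the 2 libraries of control, IAA and MT, with the group mean as a line. MYBL2 lies between 80.0 and 83.6 CPM in all 4 treated libraries against 108 and 110 CPM in control, and DFR is lowest in the 2 MT libraries.

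CHS encodes chalcone synthase, the entry enzyme of the pathway. Its level was 248 and 309 CPM in the control libraries, 324 and 305 CPM with IAA, and 370 and 369 CPM with MT. Both MT libraries were above all 4 others, and the IAA libraries lay on either side of the higher control. The log2 fold change was 0.41 ± 0.10 (SE) for MT against control, with a 95% confidence interval of 0.19 to 0.63 and an adjusted p of 0.0912 in the quasi-likelihood test of edgeR (Benjamini-Hochberg adjustment over all 21267 genes), so CHS did not pass at 0.05. It was 0.18 ± 0.10 for IAA against control (adjusted p = 0.564). Much of the spread lay between the controls, the MT value was 0.25 without control replicate 1 (adjusted p = 0.540), and without control replicate 2 it was 0.56 and passed (adjusted p = 0.0254).

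CHI encodes chalcone isomerase, which closes the ring of the chalcone. It was at 48.9 and 61.1 CPM in control, 52.6 and 50.3 CPM with IAA, and 62.1 and 62.5 CPM with MT. The MT libraries were only just above the higher control, and the difference from control was 0.18 ± 0.10 on the log2 scale (SE, adjusted p = 0.496, edgeR). Without control replicate 1 it was 0.02, and without control replicate 2 it was 0.33. F3H encodes flavanone 3-hydroxylase, which makes dihydroflavonols. It was at 75.7 and 81.1 CPM in control, 85.7 and 77.2 CPM with IAA, and 83.8 and 75.3 CPM with MT, so its groups overlapped throughout. Its log2 differences from control were 0.06 ± 0.08 with IAA and 0.02 ± 0.08 with MT (SE), and the interval for MT ran from -0.16 to 0.21. In the TAIR10.1 annotation 1588 of the 1681 bases of F3H are shared with a long non-coding RNA gene, AT3G51238, and whether counting used strand is not given, so reads of the pair cannot be told apart.

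F3'H encodes flavonoid 3'-hydroxylase, the cytochrome P450 that adds the hydroxyl group which sets quercetin apart from kaempferol. It was at 15.3 and 14.3 CPM in control, 14.2 and 11.3 CPM with IAA, and 11.8 and 13.6 CPM with MT. All 4 treated libraries were below both controls, the highest of them by a small margin, and neither difference passed (log2 -0.21 ± 0.14 with IAA and -0.22 ± 0.14 with MT, SE; adjusted p = 0.640 and 0.544, edgeR). FLS1 encodes the main flavonol synthase, which draws on the same dihydroflavonols as DFR. It was at 32.9 and 46.2 CPM in control, 40.9 and 42.8 CPM with IAA, and 53.7 and 47.5 CPM with MT. Both MT libraries were above the rest, the lower of them by little over control replicate 2, and the log2 difference from control was 0.36 ± 0.14 (SE), with an interval of 0.03 to 0.68 and an adjusted p of 0.329 (edgeR). That difference was 0.12 without control replicate 1 and 0.60 without control replicate 2.

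DFR encodes dihydroflavonol 4-reductase, the first enzyme of the anthocyanin branch. It was at 20.5 and 25.1 CPM in control, 21.9 and 18.7 CPM with IAA, and 12.3 and 16.4 CPM with MT. Both MT libraries were below all 4 others, while IAA and control overlapped. The MT level was 0.63 times control, a log2 fold change of -0.67 ± 0.16 (SE) with an interval of -1.04 to -0.30, and its adjusted p of 0.0969 (edgeR) was above 0.05. With IAA the log2 fold change was -0.16 ± 0.16 (adjusted p = 0.773).

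LDOX encodes leucoanthocyanidin dioxygenase, which forms the coloured anthocyanidin. It was at 19.5 and 19.9 CPM in control, 17.6 and 18.3 CPM with IAA, and 10.6 and 15.9 CPM with MT. The 3 groups did not overlap, with control highest and MT lowest, and the MT libraries lay far apart. The log2 fold change was -0.58 ± 0.17 (SE) for MT, with an interval of -0.96 to -0.20 and an adjusted p of 0.169, and -0.13 ± 0.16 for IAA (adjusted p = 0.830; edgeR). MT replicate 1, which holds the lower value of both late genes, is also the library with the highest summed root markers and plastid share, and the part of these in the result was not tested. Without that library the MT log2 fold changes were -0.47 for DFR (adjusted p = 0.481) and -0.31 for LDOX (adjusted p = 0.531). Without MT replicate 2 both late genes passed, at -0.91 (adjusted p = 0.0437) for DFR and -0.91 (adjusted p = 0.0162) for LDOX.

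**Figure D2:**
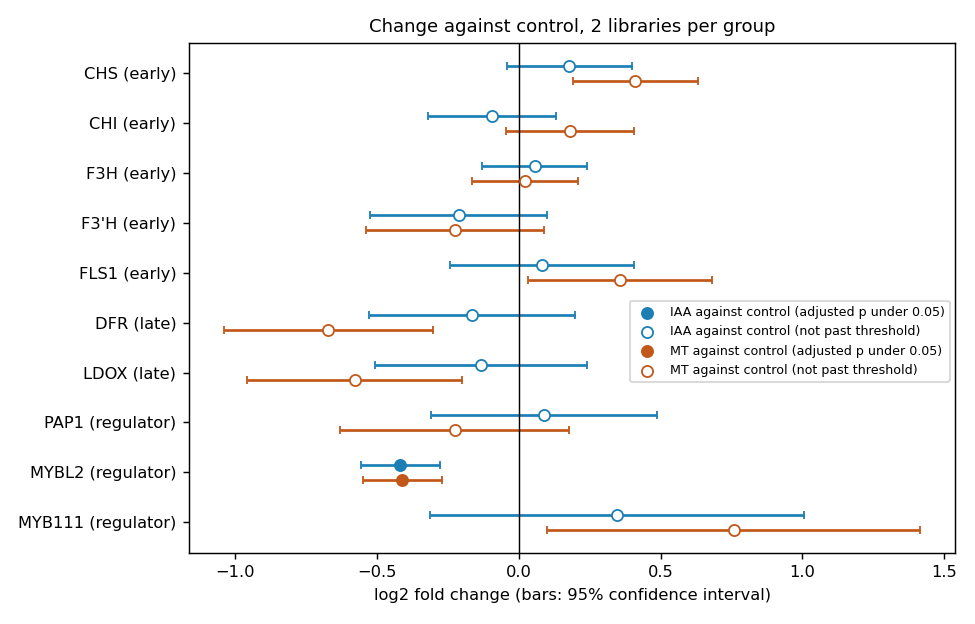
Log2 fold change of each member against control with its 95% confidence interval, IAA in blue and MT in orange, with filled points for an adjusted p under 0.05. MYBL2 is filled for both compounds, at -0.42 and -0.41, and the MT intervals of CHS, FLS1, DFR, LDOX and MYB111 leave out 0 without passing the adjusted threshold.

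The ratio of late to early reads needs no scaling between libraries, because both counts come from the same one. For every 100 FLS1 reads there were 62.2 and 54.4 DFR reads in the control libraries, 53.6 and 43.7 in those with IAA, and 22.8 and 34.6 in those with MT. For LDOX the control libraries had 59.3 and 43.0, those with IAA 43.0 and 42.7, and those with MT 19.7 and 33.4. Reads of DFR and LDOX together came to 9.51 and 8.80 per 100 reads of the 5 early genes in the control libraries, 7.63 and 7.59 in those with IAA, and 3.93 and 5.68 in those with MT. Most early reads were of CHS, for example 12924 of 21942 in control replicate 1 and 18287 of 28737 in MT replicate 1. The sum over the early genes thus mainly follows CHS. In each of these ratios both MT libraries were lowest. This follows from the levels above, where both MT libraries were lowest in the late genes and highest in CHS and FLS1. These ratios describe the 6 libraries, and no test was run on them.

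**Figure D3:**
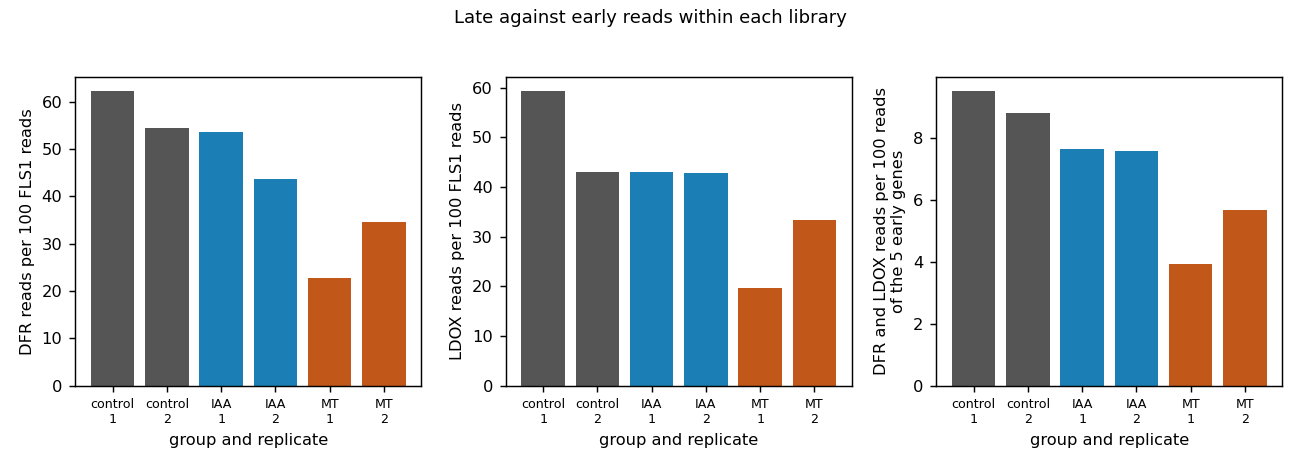
Reads of DFR, of LDOX and of both late genes in each library, per 100 reads of FLS1 or of the 5 early genes together (bars from 0, coloured by group). The MT bars are the lowest of each panel, at 22.8 and 34.6 for DFR per 100 FLS1 reads against 43.7 to 62.2 in the other 4 libraries.

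MYBL2 encodes the MYB-like repressor of late anthocyanin genes. Its level was 108 and 110 CPM in the control libraries, 82.8 and 80.0 CPM with IAA, and 80.0 and 83.6 CPM with MT. The 4 treated libraries lay close together and far below the controls. MYBL2 fell with IAA by 0.42 ± 0.06 on the log2 scale (SE, 0.75 times control, 95% interval -0.56 to -0.28, adjusted p = 0.0284, edgeR). With MT it fell by 0.41 ± 0.06 (SE, 0.75 times control, interval -0.55 to -0.27, adjusted p = 0.0120, edgeR). The log2 difference between MT and IAA was 0.01 ± 0.06, with an interval of -0.13 to 0.15. Both comparisons use the same control libraries, so the falls are not independent of each other. With 1 library left out the IAA value stayed between -0.46 and -0.40, but the call was lost without control replicate 1 (adjusted p = 0.226), control replicate 2 (0.141), IAA replicate 1 (0.0887) or IAA replicate 2 (0.182). The MT call was lost without control replicate 1 (0.128), control replicate 2 (0.0829) or MT replicate 1 (0.0865).

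PAP1 encodes the MYB factor that activates late anthocyanin genes. It was at 5.86 and 5.82 CPM in control, 6.72 and 5.69 CPM with IAA, and 4.47 and 5.54 CPM with MT. The MT libraries were the lowest, the higher of them close to the IAA replicate 2 level, and the log2 difference from control was -0.23 ± 0.18 (SE, interval -0.63 to 0.18, adjusted p = 0.651, edgeR). The difference was -0.08 without MT replicate 1 and -0.40 without MT replicate 2. PAP1 has close relatives in the genome, and among them PAP2 was at 0.175 to 0.355 CPM and MYB113 had a count of 0 in every library. MYB114 had counts of 10 and 0 in control, 23 and 7 with IAA, and 0 in both MT libraries. It was removed by the filter on low counts and not tested.

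MYB111 encodes a flavonol regulator of the early genes and was the member with the fewest reads, 62 to 116 per library, for which counting alone gives an error of up to 12.7%. It was at 1.55 and 1.31 CPM in control, 1.57 and 2.08 CPM with IAA, and 2.35 and 2.49 CPM with MT. Its MT libraries were above all others, and the lower IAA library was only just above the higher control. The log2 difference from control was 0.76 ± 0.29 with MT (SE, 1.69 times control, interval 0.10 to 1.42, adjusted p = 0.307) and 0.35 ± 0.29 with IAA (adjusted p = 0.729; edgeR).

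Over the 10 members, the test called 1 lower and 0 higher with IAA, where 0.118% of all 21267 genes were called lower, 0.583% higher and 0.701% in either direction. With MT it called 1 lower and 0 higher, where 0.226% of all genes were called lower, 1.67% higher and 1.89% in either direction. In the test for any difference among the 3 groups 1 member, MYBL2, was called (adjusted p = 0.0184), against 1.33% of all genes. The groups did not overlap for 9 members with MT, 4 higher (22.5% of all genes) and 5 lower (22.2%), against 44.7% of all genes in either direction. With IAA this held for 4 members, 1 higher (23.6% of all genes) and 3 lower (20.2%), near the 43.7% of all genes. At an unadjusted p under 0.05 there were 6 members with MT, 3 higher and 3 lower, where 8.67% of all genes were higher, 4.58% lower and 13.2% either. With IAA there were 0 higher and 1 lower, where 6.71% of all genes were higher, 4.27% lower and 11.0% either. The median log2 fold change of the members was -0.02 with IAA and -0.10 with MT, beside 0.01 and 0.00 over all genes tested. For the 7 enzyme genes the intervals with IAA all held 0 and together ran from -0.53 to 0.41, which bounds the change at this number of libraries without showing that the levels were equal.

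In the direct comparison of MT with IAA, edgeR's quasi-likelihood test called 0 of the 10 members, against 0.0188% of all genes (0.0141% lower and 0.00470% higher with MT), and DESeq2 also called 0. At an unadjusted p under 0.05 there were 4, against 10.5% of all genes, 5.98% higher and 4.53% lower with MT. These were CHS (log2 difference 0.23 ± 0.10) and CHI (0.28 ± 0.10), higher with MT, and DFR (-0.51 ± 0.16) and LDOX (-0.44 ± 0.17), lower with MT (SE, adjusted p from 0.355 to 0.455). The groups did not overlap for 7 members, 4 higher (19.8% of all genes) and 3 lower (20.4%) with MT, against 40.1% of all genes in either direction. The lower late genes with MT are therefore not shown to differ from IAA after adjustment. This comparison does not involve the control columns named 72 h. In it 11 of 12 root markers had positive and all 10 green tissue markers negative fold changes, where 51.6% of all genes were negative. None of either list was called by edgeR's test, and DESeq2 called 1 root marker, higher with MT. An unadjusted p under 0.05 was reached by 5 root markers and 1 green tissue marker. The part of organ content was not tested.

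A further 52 genes of the pathway and its control were read from lists by role, of which 48 passed the filter. Like the members, the lists were chosen with earlier results of these data known. The shares of all genes set beside their counts are therefore no test of a list. The lowest p of a list is that in the test for any difference among the 3 groups. Among enzymes of general phenylpropanoid metabolism, 0 of 8 were called in any of the 3 comparisons by edgeR's test, and DESeq2 called 1, PAL3, with MT. An unadjusted p under 0.05 was reached by 1 with IAA (11.0% of all genes) and 2 with MT (13.2%). These were 4CL3, higher with both compounds, and PAL3, lower with MT. The log2 fold change of 4CL3 was 0.29 ± 0.10 with IAA and 0.32 ± 0.10 with MT (SE). The list had median log2 fold changes of -0.01 with IAA and -0.08 with MT. PAL3, a phenylalanine ammonia-lyase gene, had the lowest p of that list, and it was at 24.2 and 23.5 CPM in control, 20.2 and 22.5 CPM with IAA, and 13.5 and 18.4 CPM with MT (log2 -0.59 ± 0.14 with MT, adjusted p = 0.0990). Its MT libraries were below all others, as for DFR and LDOX. In the flavonol branch 0 of 7 tested genes were called by edgeR or DESeq2 in any comparison, and 2 with IAA and 1 with MT had an unadjusted p under 0.05. With either compound 6 of 7 had positive fold changes, and the medians were 0.20 with IAA and 0.14 with MT. Of all genes tested, 46.4% had a negative fold change with IAA and 50.7% with MT. The flavonol 7-O-rhamnosyltransferase gene AT1G06000 had the lowest p there, at 39.8 and 39.8 CPM in control, 47.1 and 51.7 CPM with IAA, and 49.8 and 43.7 CPM with MT (adjusted p = 0.213 and 0.283). A long non-coding RNA gene, AT1G06002, covers 1580 of its 1587 bases.

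Genes that decorate and transport anthocyanins, downstream of LDOX, had a median log2 fold change of -0.28 with MT and -0.02 with IAA. None of the 9 was called in any of the 3 comparisons by edgeR's test, and DESeq2 called 2 lower with MT than in control, GSTF12 and AT4G14090, of which the latter was also lower than with IAA. With MT 8 of 9 had negative fold changes (50.7% of all genes) and their MT libraries were below both controls (22.2% of all genes). An unadjusted p under 0.05 was reached by 4, all lower (4.58% of all genes). The anthocyanin 5-O-glucosyltransferase gene AT4G14090 had the lowest p of the list in the test for any difference among the 3 groups. It was at 8.55 and 9.02 CPM in control, 8.99 and 9.87 CPM with IAA, and 6.33 and 4.89 CPM with MT (log2 -0.64 ± 0.16 with MT, adjusted p = 0.103). The following genes were picked after their values were seen. GSTF12, a glutathione S-transferase needed to carry anthocyanins to the vacuole, was at 10.2 and 9.95 CPM in control, 10.7 and 7.79 CPM with IAA, and 6.25 and 6.19 CPM with MT (log2 -0.69 ± 0.17, adjusted p = 0.0934). UF3GT, which adds xylose to anthocyanins, was at 3.24 and 3.10 CPM in control, 3.24 and 2.28 CPM with IAA, and 1.60 and 1.62 CPM with MT (log2 -0.98 ± 0.26, adjusted p = 0.141). In GSTF12 and UF3GT the MT libraries lay close together, below both controls and both IAA libraries.

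Of the other activators, the MYB, bHLH and WD40 partners, 0 of 7 tested genes were called in any comparison by edgeR or DESeq2, and 1 with IAA and 1 with MT had an unadjusted p under 0.05. TT8, the bHLH partner in late gene activation, had the lowest p of that list and was at 2.03 and 3.56 CPM in control, 1.85 and 2.01 CPM with IAA, and 1.32 and 1.72 CPM with MT (log2 -0.88 ± 0.34 with MT, adjusted p = 0.307). Both MT libraries were below all others, as for the late genes, and the controls differed from each other by more than the treated groups did. Of 5 genes of light signalling 0 were called by edgeR or DESeq2 and 0 had an unadjusted p under 0.05 in any comparison, and the lowest p was that of the UV-B receptor gene UVR8, at 127 to 129 CPM in control and 138 CPM in both MT libraries (adjusted p = 0.522).

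**Figure D4:**
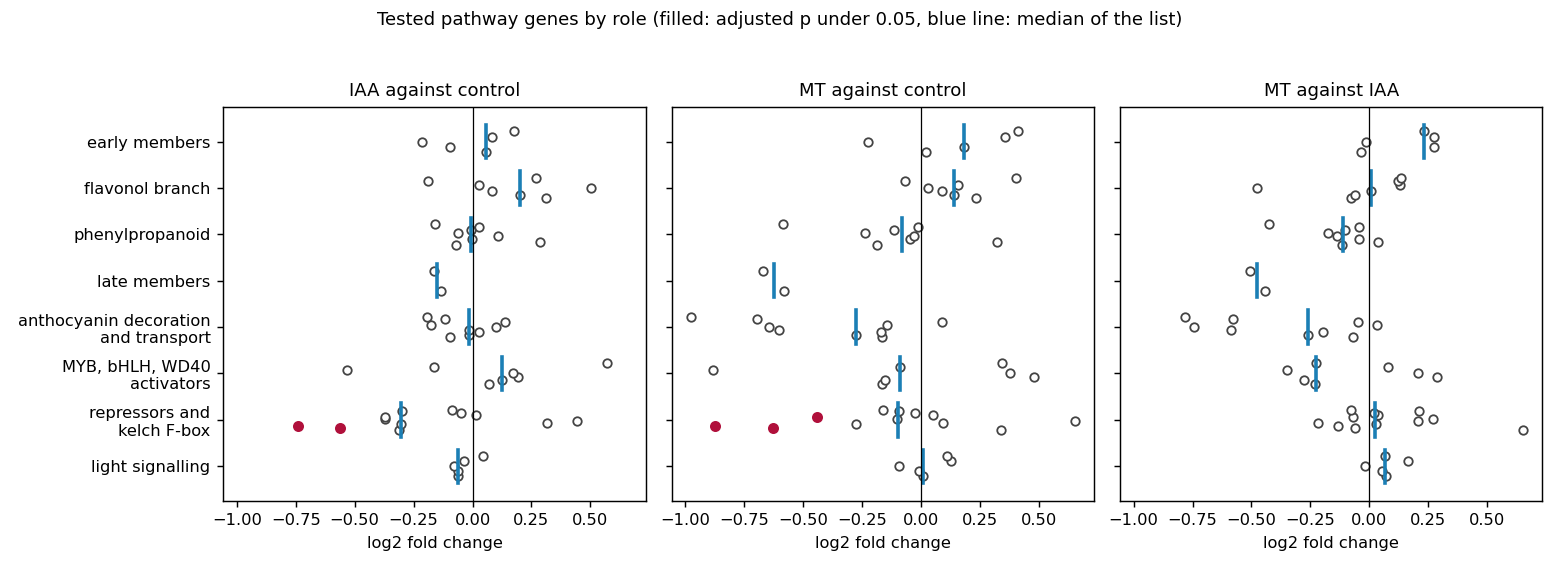
Log2 fold changes of the tested pathway genes by role in the 3 comparisons, 1 point per gene, with filled points for an adjusted p under 0.05 and the list median as a blue line (PAP1, MYBL2 and MYB111 are not drawn). With MT against control the late members and the decoration genes lie to the left, with medians of -0.63 and -0.28, and in the comparisons against control the filled points are all in the list of repressors and kelch F-box genes.

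The list of other repressors held the remaining calls, and all of them were in genes of kelch F-box proteins, which mark other proteins for degradation. Of its 12 tested genes 2 fell with IAA (0.118% of all genes were called lower) and 3 with MT (0.226% of all genes), and edgeR and DESeq2 called 0 between MT and IAA, where 2 had an unadjusted p under 0.05. This list too was chosen with earlier results of these data known, so the shares of all genes are no test of it. Not every kelch F-box gene of the list was lower. KFB01 had log2 fold changes of 0.34 ± 0.23 with MT and -0.31 ± 0.24 with IAA (SE, adjusted p = 0.596 and 0.696, edgeR). It was 1 of the 2 between MT and IAA, higher with MT. AT1G23390, annotated as a kelch repeat F-box protein, was at 288 and 254 CPM in control, 192 and 174 CPM with IAA, and 179 and 172 CPM with MT. It fell by 0.56 ± 0.08 on the log2 scale with IAA and by 0.63 ± 0.08 with MT (SE, adjusted p = 0.0272 and 0.00668, edgeR). Its 4 treated libraries were well below both controls, as for MYBL2.

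KFB20 and KFB50 encode kelch F-box proteins that direct phenylalanine ammonia-lyase to breakdown, and both are also known as negative regulators of cytokinin response. KFB20 was at 160 and 134 CPM in control, 96.2 and 79.8 CPM with IAA, and 88.7 and 71.8 CPM with MT. It fell by 0.74 ± 0.13 with IAA and by 0.88 ± 0.13 with MT (log2, SE, adjusted p = 0.0490 and 0.0119, edgeR). The IAA call of KFB20 was lost with library totals alone (adjusted p = 0.0507, edgeR). It was also lost with a mean of at least 5 CPM (0.0524) and a fit of the compared groups only (0.0538). KFB50 was at 188 and 166 CPM in control, 144 and 129 CPM with IAA, and 138 and 123 CPM with MT. It fell by 0.44 ± 0.09 with MT (SE, adjusted p = 0.0490) and was at -0.37 ± 0.09 with IAA (adjusted p = 0.146), where DESeq2 called it (adjusted p = 0.00974). It shares bases with 2 neighbouring genes in the annotation, so its reads may not all be its own. The call of KFB50 with MT was lost under RLE factors (adjusted p = 0.0524), library totals alone (0.0532), a mean of at least 5 CPM (0.0591) and a fit of the compared groups only (0.0628). It was also lost with any 1 of the 6 libraries left out, and that of KFB20 with IAA with any 1 library other than MT replicate 1 left out. That of KFB20 with MT was also lost without MT replicate 2 (adjusted p = 0.0506), and that of AT1G23390 with IAA without either IAA library (adjusted p = 0.0652 and 0.173). Without control replicate 1 none of the 3 passed in either comparison of edgeR's test, where the adjusted p with MT was 0.0707 for AT1G23390, 0.125 for KFB20 and 0.426 for KFB50.

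**Figure D5:**
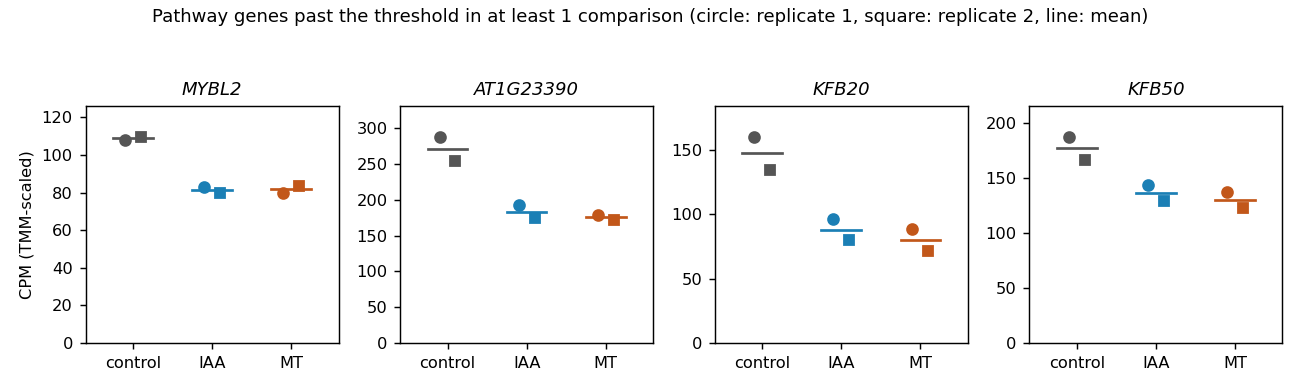
Level in CPM (linear axis from 0) of the members and other pathway genes, organ markers aside, that passed the threshold in at least 1 comparison, in the 2 libraries of each group with the mean as a line. In each panel the 4 treated libraries lie below both controls, for AT1G23390 at 172 to 192 CPM against 254 and 288 CPM.

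The genes outside the lists with the pattern most like that of CHS over the 6 libraries, by Pearson correlation of log2 CPM among 18593 genes, were LAC3, a laccase gene (0.989), AT1G43980, of the tetratricopeptide repeat family (0.986), and WRKY31, a transcription factor gene (0.986). For DFR they were AT1G49590, which encodes a zinc finger protein (0.993), SOS5, a fasciclin-like arabinogalactan protein gene (0.990), and AT1G71730, of uncharacterized product (0.989). The values are a description of 6 libraries that share their groups. A value over 0.95 was reached by 78 genes for CHS and by 54 genes for DFR.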

How the data were processed

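RNA-seq was analysed from 1 table of read counts per gene, deposited by the authors as whole numbers without normalization. The submitters' processing notes list TopHat2 2.0.12, Bowtie2 2.2.3, HTSeq 0.6.1 and DESeq without their roles. Genome build, annotation, library kit and strand setting were not given in the sources used here. Columns were matched to samples by group and replicate number, and groups follow the sample titles.

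Genes were filtered with filterByExpr by group, which left 21267 and removed 6711, and libraries were scaled by TMM factors. All 6 libraries entered 1 fit of edgeR 4.0.16 (R 4.3.3; glmQLFit and glmQLFTest), with Benjamini-Hochberg adjustment over all genes tested and a threshold of 0.05. CPM are counts per 1000000 of the TMM-scaled library size, and intervals (95%) use the fit's degrees of freedom. Log2 CPM for correlations used a prior count of 2. A count of 3, the floor for counting error, is 0.0458 to 0.0748 CPM here. The counting error given for MYB111 is separate from the intervals of fold changes, which come from the fit. Gene names and overlaps came from the RefSeq table of TAIR10.1.

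The members and the lists were chosen with earlier results of these data known. All members are named, and in each other list the genes past the threshold in any comparison, or else the gene with the lowest p for any difference among the groups, where 282 genes (1.33%) passed, MYBL2 among them. Organ markers are given by counts and summed levels, apart from those with a count of 0 (TT2 and BAN), and GSTF12, UF3GT and the low relatives of PAP1 were named after their values were seen. Genes most like CHS and DFR were ranked among those with a mean of at least 1 CPM. Alternatives were RLE factors, library totals alone, no filter, a mean of at least 5 CPM, DESeq2 1.42.0, a replicate block, only the groups compared, removal of organelle genes, and each library left out.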

Additional observations from a re-analysis of the deposited data

How the results depend on the processing

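The falls of MYBL2, AT1G23390, KFB20 and KFB50 against control kept their direction under every alternative run, and their calls did not. In place of 1 member called with MT against control there were 3 without a filter on low counts (CHS, DFR and MYBL2) and 4 with DESeq2 (CHS, DFR, LDOX and MYBL2). For any difference among the groups DESeq2 called 3 members in place of 1. Other pathway genes called with IAA went from 2 to 1 with library totals alone, with a mean of at least 5 CPM and with only the groups compared. With MT they went from 3 to 2 with RLE factors, library totals alone, a mean of at least 5 CPM and only the groups compared, to 5 without a filter and to 6 with DESeq2, which also called 1 between MT and IAA in place of 0. Over all genes, 149 were called with IAA, 268 without a filter, 475 with DESeq2 and 81 with only the groups compared. With MT 403 were called, and 823 with DESeq2. Between MT and IAA 4 were called, 13 without a filter and 255 with DESeq2. The cause of these differences was not tested. With 1 library left out, members called ranged from 0 to 1 with IAA, from 0 to 3 with MT and from 0 to 2 for any difference. Other pathway genes called ranged from 0 to 2 with IAA and from 0 to 3 with MT. All genes called ranged from 17 to 109 with IAA, from 112 to 447 with MT and from 0 to 55 between MT and IAA. These fits have fewer samples, and the lone library of a group is assumed to vary like the other groups.

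Over all genes the correlations of same-numbered deviations were 0.03 for control with IAA, -0.15 for control with MT and 0.01 for IAA with MT. With 2 libraries a group the deviations mirror each other, so these values cannot exclude a pairing by replicate number. AT1G23390, KFB20 and KFB50 were each higher in replicate 1 than in replicate 2 of every group. With a replicate block KFB20 had an adjusted p of 0.00338 with IAA and 0.000734 with MT (edgeR). With a replicate block the counts were 1 member with IAA, 1 with MT and 0 between MT and IAA, 3 and 3 other pathway genes with IAA (KFB50 added, adjusted p = 0.0464) and MT, and 137, 351 and 5 genes over all. Counting error is largest for the genes with the fewest reads, among them MYB111, TT8, UF3GT and PAP2.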
